A study of Mus musculus with 12 samples.

Results

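The natriuretic peptide system of the heart was followed through 7 genes, found in the deposited count files by the Ensembl ID of each symbol: the peptides Nppa and Nppb, the receptors Npr1, Npr2 and Npr3, and the proteases Corin and Furin. These are 7 of the 49315 genes in the files, and all 7 were among the 15476 genes that passed the filter on low counts. The 12 libraries came from hearts of wild-type female C57BL/6J mice (the strain label reads C57BL/6), 3 in each of 4 groups. Western diet postpartum mice were fed for 15 weeks, before they were bred, with a diet that drew 45% of its energy from fat and 17% from sucrose, and were sampled 1 day after delivery. Control diet postpartum mice had a diet that drew 10% of its energy from fat and were otherwise treated alike. Western diet nonpregnant and control diet nonpregnant mice were kept on the same diets for the same time without breeding. All mice were 27 to 29 weeks old. The series set out to ask how diet-induced metabolic syndrome changes the remodelling of the heart in pregnancy. The labels do not say that each library is a separate mouse, so the spread behind every p-value is that between libraries and may be technical. The sample numbers in the titles of the postpartum libraries all come before those of the nonpregnant libraries, so an effect of processing order, if there was any, cannot be told apart from pregnancy state.

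Natriuretic peptides are hormones that heart muscle releases when its walls are stretched or overloaded, and they promote salt and water excretion and relax blood vessels. Nppa encodes the precursor of atrial natriuretic peptide (ANP), made mostly in the atria of the adult heart, and Nppb that of B-type natriuretic peptide (BNP), made in atria and ventricles. Corin, a transmembrane serine protease of cardiomyocytes, cleaves the ANP precursor, and Furin, a protease of the secretory pathway, cleaves many precursor proteins, the BNP precursor among them. Npr1 encodes the receptor through which ANP and BNP raise cyclic GMP inside cells, Npr2 the receptor of C-type natriuretic peptide, and Npr3 the receptor that clears the peptides.

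Library totals ran from 22754591 to 29492416 counts. Levels are given as CPM, the count of a gene relative to the total of its library with TMM scaling. The 3 counts that a count of 0 still allows equal 0.102 to 0.132 CPM, for counting error only. The tissue label is heart, which was trimmed at collection by the labels' protocol. Of the 7 atrial genes listed, 3 were below the filter and close to 0 in all 12 libraries. They had at most 0.194 CPM for Myl7, 0.122 CPM for Sln and 0.428 CPM for Bmp10. The other 4 passed the filter, with 1.09 to 2.18 CPM for Myl4 and 2.36 to 5.02 CPM for Dkk3. Nr2f1 had 2.93 to 4.785 CPM and Kcnj3 43.9 to 86.8 CPM. Sln was listed at 0 in all 3 control diet postpartum libraries. The ventricular markers (Myl2, Myl3, Irx4 and Hey2) summed to 9656 to 12012 CPM. In control diet postpartum replicate 3 the 8 adipocyte markers summed to 237 CPM, while every other library had 18.5 to 32.2 CPM. In any group of 3 libraries 1 lies outside the closest pair, so that place alone does not mark an outlier. Control diet nonpregnant replicate 1 did so with a chi-square per degree of freedom over genes of 15.3 and 15.0, against 3.76 within the pair. For Western diet postpartum replicate 2 it was 12.9 and 11.8 against 6.49. Control diet postpartum replicate 3 had 11.1 and 8.52 against 7.39, and Western diet nonpregnant replicate 1 had 8.37 and 9.03 against 5.04. In bulk tissue, fewer cells of a type and less RNA per cell cannot be told apart.

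Nppa and Nppb lie side by side on the forward strand of chromosome 4, with 13516 bases between the end of Nppb and the start of Nppa and no annotated gene between them. Nppa (ENSMUSG00000041616) spans chr4:148000722-148002079 and Nppb (ENSMUSG00000029019) chr4:147985788-147987205 in GRCm38. Of the others, Npr2 (ENSMUSG00000028469) also lies on chromosome 4 at 43631935 to 43651244, Npr1 (ENSMUSG00000027931) on chromosome 3 at 90450591 to 90465866, Npr3 (ENSMUSG00000022206) on chromosome 15 at 11839896 to 11905674, Corin (ENSMUSG00000005220) on chromosome 5 at 72300025 to 72504473 and Furin (ENSMUSG00000030530) on chromosome 7 at 80388585 to 80405436. The promoters of Nppa and Nppb are printed because these are the 2 members whose levels passed a test below and they did so in different comparisons. Each runs from 250 bases before the RefSeq start site to 50 bases after it (GRCm38.p6, forward strand, Nppa at chr4:148000472-148000771 and Nppb at chr4:147985650-147985949). Capitals mark matches on either strand to GATAA, the core that GATA factors bind, CATTCC, the M-CAT element that TEAD factors bind, and TATAAA, the TATA box.
Nppa: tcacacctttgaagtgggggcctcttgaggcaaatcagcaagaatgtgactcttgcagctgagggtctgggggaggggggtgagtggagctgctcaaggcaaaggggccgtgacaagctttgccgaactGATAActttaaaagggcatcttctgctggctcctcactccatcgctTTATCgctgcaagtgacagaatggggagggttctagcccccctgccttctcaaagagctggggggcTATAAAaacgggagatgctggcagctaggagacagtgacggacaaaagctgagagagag
Nppb: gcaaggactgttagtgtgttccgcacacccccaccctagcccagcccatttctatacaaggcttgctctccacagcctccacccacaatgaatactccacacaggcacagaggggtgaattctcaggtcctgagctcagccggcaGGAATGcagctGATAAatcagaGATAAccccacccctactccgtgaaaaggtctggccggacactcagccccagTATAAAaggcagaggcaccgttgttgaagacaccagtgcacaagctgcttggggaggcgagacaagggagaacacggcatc
The Nppa promoter held 2 GATAA matches, which begin 121 and 75 bases before the start site, the second of them on the reverse strand, and a TATAAA match 9 bases before it. The Nppb promoter held 2 GATAA matches 94 and 83 bases before the start site, a reverse-strand CATTCC match 105 bases before it and a TATAAA match 31 bases before it. The annotation used for the counts starts Nppb at 147985788, inside this window and ahead of all its marked matches. These matches therefore lie before the RefSeq start site but within the annotated span of Nppb given above. AAGTG, a core that NKX2-5 binds and that is not capitalised here, had 2 matches in the Nppa promoter, 239 and 65 bases before the start site, and 0 in the Nppb promoter. TGACTCA, the AP-1 site, had 0 matches in both. No match overlapped another. Of 32851 mouse promoters of the same length, 25.4% held GATAA, 14.7% CATTCC, 13.6% TATAAA, 46.4% AAGTG and 5.2% TGACTCA on either strand. All 7 members had a RefSeq promoter. Those of Npr1, Npr2, Npr3 and Corin held none of the 5 motifs, as did the first of the 2 Furin promoters, while the second held 5 AAGTG matches and a TATAAA match. A match describes these letters and does not show that a factor binds there.

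Levels of different genes are compared here as median CPM per kilobase of exon over the 12 libraries. Over all exonic bases Nppb was the highest member at 177, followed by Nppa at 70.9 and Corin at 46.1, then Npr2 at 14.2, Furin at 10.98, Npr1 at 5.85 and Npr3 at 3.26. The order Npr2, Furin, Npr1, Npr3 below the other 3 held in all 12 libraries, as did the first place of Nppb over all exonic bases. On that basis Corin stood above Nppa in 3 libraries, Western diet postpartum replicate 1 and Western diet nonpregnant replicates 1 and 2. All these places depend on the exonic length used, which is 9178 bases for Furin and 4667 for Npr2. Without that division the median CPM was 248.8 for Corin, 138.5 for Nppb, 100.8 for Furin, 66.35 for Npr2 and 61.33 for Nppa. The length of Nppa is itself uncertain, because 532 of its 865 exonic bases are shared with a gene on the opposite strand and may not have been counted. Reads were not counted by base here, so this case was read by dividing the whole Nppa count by its 333 unshared bases. That division holds only if no read from the shared part was counted. Nppa then had a median of 184 and lay above Corin in all 12 libraries. It lay above Nppb in 5 of the 12 (Western diet postpartum replicate 2, control diet postpartum replicate 1 and the 3 control diet nonpregnant libraries). The members also differed in how much libraries of a group scattered. The standard deviation within groups, on the log2 CPM scale, was 0.72 for Nppb, 0.31 for Nppa, 0.24 for Npr3, 0.21 for Corin, 0.19 for Furin, 0.098 for Npr1 and 0.069 for Npr2. The median over all genes tested was 0.15, and 175 of the 15476 genes scattered more than Nppb. Beside the 1000 genes nearest in level, the scatter lay at percentile 99.9 for Nppb, 98.3 for Nppa and 94.4 for Npr3. It lay at 93.9 for Corin, 92.6 for Furin, 50.85 for Npr1 and 32.8 for Npr2.

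**Figure D1:**
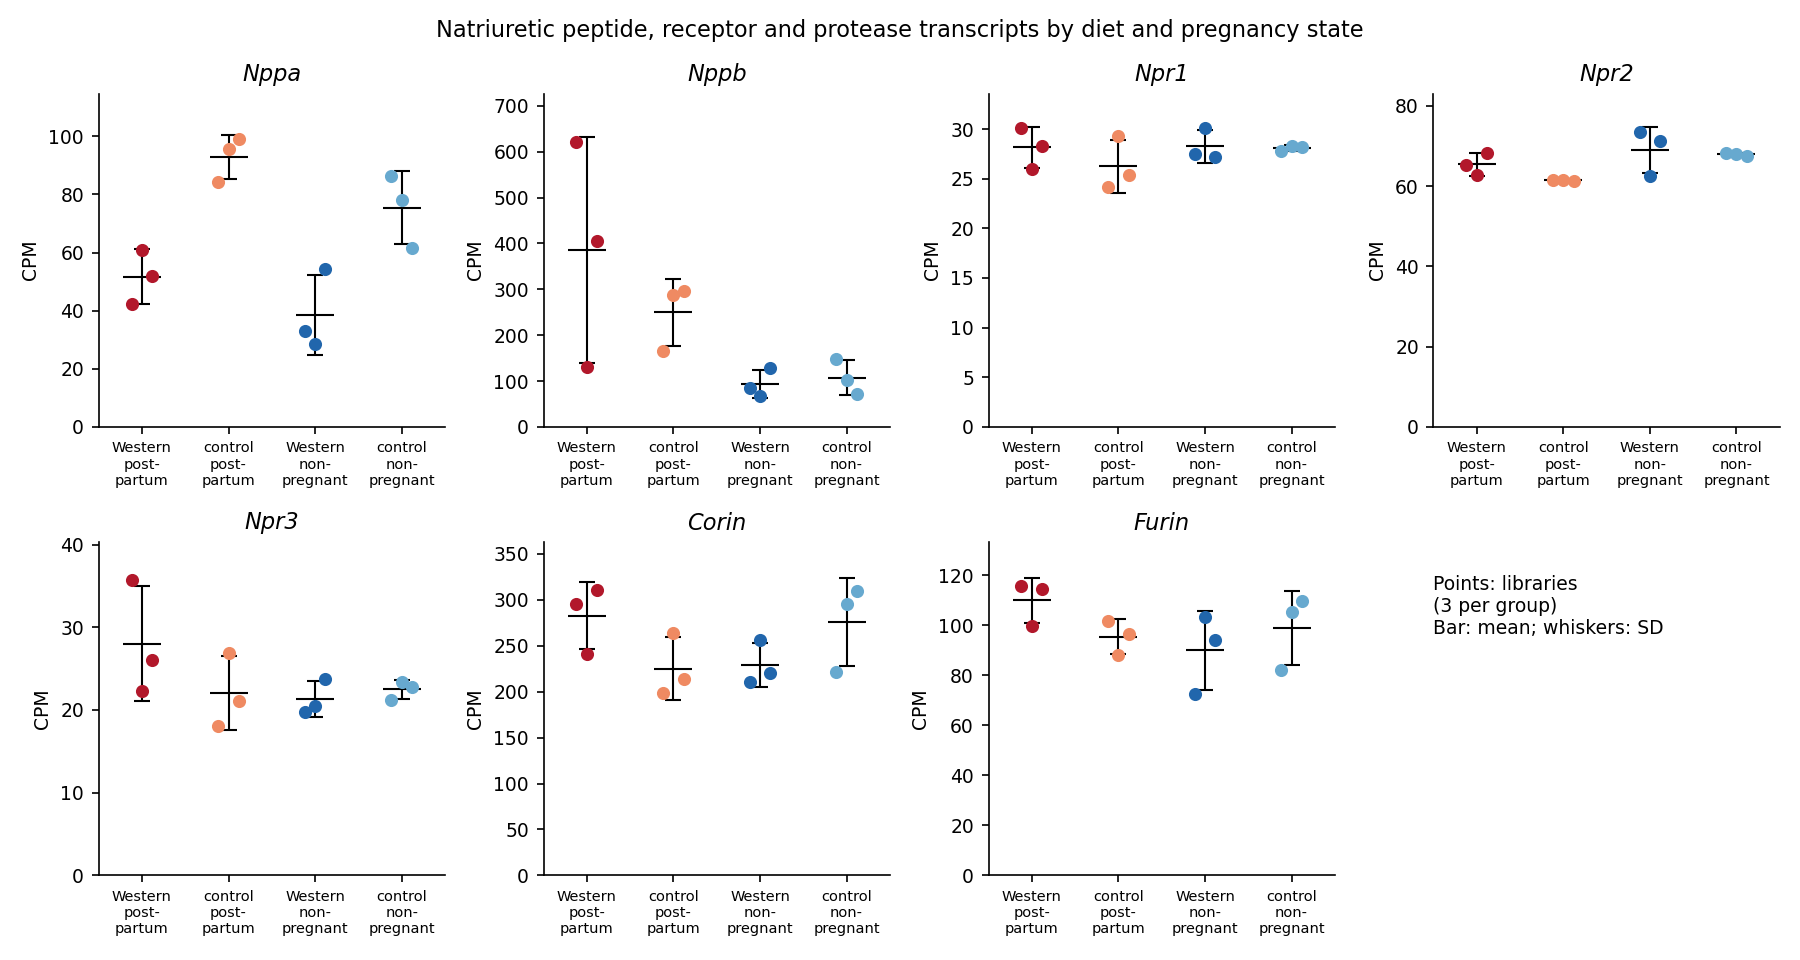
Level of each of the 7 genes in CPM (vertical axis, starting at 0) in the 4 groups (horizontal axis). Points are the 3 libraries of a group, the bar is their mean and the whiskers their SD. Nppb is widest in Western diet postpartum hearts (129.8 to 622 CPM), and Nppa lies lower on the Western diet than on the control diet in both pregnancy states.

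Nppb, the gene of BNP, rose in postpartum hearts when averaged over the diets, 3.1-fold, and it was the only member past the threshold in that comparison. On the Western diet it reached 622, 129.8 and 406 CPM in postpartum hearts, against 85.1, 67.6 and 128 CPM in nonpregnant hearts. The lowest postpartum library, replicate 2, lay just above the highest nonpregnant library, and the other 2 lay well above it. On the control diet Nppb had 166, 288 and 297 CPM in postpartum hearts, against 147, 101 and 72.1 CPM in nonpregnant hearts. There too the groups did not overlap, although the nearest libraries were close. The group means were 386 ± 247 CPM in Western diet postpartum and 250.3 ± 72.8 CPM in control diet postpartum hearts, against 93.5 ± 30.9 CPM in Western diet nonpregnant and 107 ± 37.9 CPM in control diet nonpregnant hearts (SD, n = 3 each). Of all genes tested, 10.1% were higher in postpartum hearts without overlap on the Western diet, 8.12% on the control diet and 1.59% on both.

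Averaged over the diets, the log2 fold change of Nppb was 1.63 (SE 0.31, 95% interval 0.97 to 2.30) with an adjusted p of 0.0229 in edgeR's quasi-likelihood test with Benjamini-Hochberg adjustment over all genes. In this comparison 1.78% of the genes tested passed the threshold of 0.05 and 1.03% passed it with higher levels. The call was lost when edgeR's robust option was used (adjusted p = 0.0865). It was also lost, in the same test, without Western diet postpartum replicate 1 (0.0572), control diet postpartum replicate 3 (0.0533), Western diet nonpregnant replicate 2 (0.0627), control diet nonpregnant replicate 2 (0.0601) or control diet nonpregnant replicate 3 (0.0643). The direction stayed the same in all 22 alternatives, with log2 fold changes of 1.37 to 1.84. Without Western diet postpartum replicate 2 the value was 1.84 (adjusted p = 0.00178 in edgeR's test), and without control diet nonpregnant replicate 1 it was 1.79 (adjusted p = 0.0155).

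On each diet alone Nppb did not pass the test. On the Western diet its log2 fold change was 2.04 (SE 0.44, edgeR adjusted p = 0.0588), a comparison in which 0.588% of genes passed. On the control diet it was 1.22 (SE 0.43, edgeR adjusted p = 0.271), where 0.239% of genes passed. DESeq2, which called 2.33% of all genes in that comparison, called the Western diet difference (adjusted p = 0.00471), and so did edgeR without Western diet postpartum replicate 2 (2.45, adjusted p = 0.00192). Leaving out Western diet postpartum replicate 1 instead gave 1.52 with an edgeR adjusted p of 0.247. The difference between the diets in the postpartum change, tested as the interaction, was 0.82 (SE 0.61, edgeR adjusted p = 0.710), so a larger change on either diet was not shown. Between the diets, averaged over the states, Nppb had a log2 fold change of 0.21 (SE 0.30, edgeR adjusted p = 0.817).

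Set against the control diet nonpregnant hearts, the Western diet postpartum hearts had 3.60-fold more Nppb (log2 fold change 1.85, SE 0.44, adjusted p = 0.0431 in edgeR's test), in a comparison where 2.62% of genes passed. The groups overlapped here, since Western diet postpartum replicate 2 with 129.8 CPM lay below control diet nonpregnant replicate 1 with 147 CPM. The call was lost in 7 of 17 alternatives, among them the robust option (0.136), a fit of these groups only (0.0943) and limma-voom (0.0728). It was also lost in edgeR's test without Western diet postpartum replicate 1 (0.189) or replicate 3 (0.107) and without control diet nonpregnant replicate 2 (0.140) or replicate 3 (0.132).

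Among the cell type markers, 3 of 8 macrophage genes (Cd68, C1qa and C1qb) and 2 of 8 fibroblast genes (the collagens Col1a1 and Col1a2) also rose in postpartum hearts averaged over diets, by edgeR's test. In that comparison 1.03% of all genes were called higher and 0.750% lower. The macrophage markers summed to 201 to 244 CPM in Western diet postpartum and 217 to 245 CPM in control diet postpartum hearts, against 180.5 to 209 CPM in Western diet nonpregnant and 159 to 199 CPM in control diet nonpregnant hearts. Fibroblast markers summed to 925 to 1040.0 CPM and 1070.0 to 1294 CPM in the Western and control diet postpartum hearts, against 949 to 1004 CPM and 705 to 953 CPM in the Western and control diet nonpregnant hearts. Of the ventricular markers 1 of 4 fell, Myl2 (log2 fold change -0.24, edgeR adjusted p = 0.0350). The sums of the ventricular markers did not overlap on either diet, with 9916 to 10998 CPM in Western diet postpartum hearts against 11110 to 11649 CPM in Western diet nonpregnant hearts, and 9656 to 11056 CPM in control diet postpartum hearts against 11494 to 12012 CPM in control diet nonpregnant hearts. Most of each sum came from Myl2 and Myl3, with medians of 6280 and 4787 CPM over the 12 libraries. Myl3 alone overlapped between the states on both diets, so the sums mainly repeat the fall of Myl2. Of the general cardiomyocyte genes 0 of 8 passed, and their sums overlapped (80382 to 82579 and 79559 to 87188 CPM in Western and control diet postpartum hearts, against 75425 to 80609 and 81693 to 93445 CPM in Western and control diet nonpregnant hearts). In Western diet postpartum against control diet nonpregnant hearts, edgeR called 2 of 11 endothelial genes (Pecam1 and Cldn5), 1 of 8 macrophage genes (C1qb) and 1 of 8 fibroblast genes (Pdgfra) higher, 1 of 8 cardiomyocyte genes (Pln) lower and 0 of 4 ventricular genes. Of all genes 1.45% were called higher and 1.18% lower there. Between these groups the sums of the macrophage and ventricular markers given above did not overlap, nor did those of the endothelial markers, with 1187 to 1321 CPM in Western diet postpartum hearts against 1083 to 1125 CPM in control diet nonpregnant hearts. The part of cell composition in either Nppb result was not tested.

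Nppa, the gene of ANP, fell on the Western diet when averaged over the pregnancy states, to 0.53 times its control diet level, and no other member passed that test. In postpartum hearts it had 42.3, 61.03 and 51.8 CPM on the Western diet, against 84.4, 95.4 and 98.9 CPM on the control diet. In nonpregnant hearts it had 33.0, 28.5 and 54.3 CPM on the Western diet, against 86.3, 78.1 and 61.6 CPM on the control diet. All 3 Western diet libraries lay below all 3 control diet libraries in each state. Of all genes tested 9.28% did so in postpartum hearts, 7.84% in nonpregnant hearts and 1.05% in both. The lowest control diet library, nonpregnant replicate 3, nearly met the highest Western diet library, postpartum replicate 2. The means were 51.7 ± 9.36 CPM in Western diet postpartum and 38.6 ± 13.8 CPM in Western diet nonpregnant hearts, against 92.9 ± 7.59 CPM in control diet postpartum and 75.3 ± 12.6 CPM in control diet nonpregnant hearts (SD, n = 3 each).

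Averaged over the states, the log2 fold change of Nppa was -0.91 (SE 0.14, 95% interval -1.21 to -0.60) with an adjusted p of 0.00714 in edgeR's quasi-likelihood test. It ranked 35th by p among the genes tested, of which 1.38% passed and 0.394% passed with lower levels. The call held in all 22 alternatives, with values from -1.07 to -0.82 and adjusted p-values up to 0.0398. Without Western diet postpartum replicate 2 it was -0.97 (edgeR adjusted p = 0.00472), without control diet nonpregnant replicate 1 it was -0.85 (adjusted p = 0.0145), and without control diet postpartum replicate 3, the library with the adipocyte transcripts, it was -0.88 (adjusted p = 0.0181). Within each state alone edgeR made no call for Nppa. Its log2 fold change was -0.85 in postpartum hearts (SE 0.20, adjusted p = 0.0629) where 0.879% of genes passed, and -0.96 in nonpregnant hearts (SE 0.20, adjusted p = 0.143) where 0.0582% of genes passed. DESeq2 called both (adjusted p = 0.0373 in postpartum and 0.0360 in nonpregnant hearts), where it called 2.95% and 0.614% of all genes. The 2 estimates differed by 0.12 on the log2 scale (interaction, SE 0.28, edgeR adjusted p = 0.927).

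Pregnancy state gave Nppa a log2 fold change of 0.36 averaged over diets (SE 0.14, edgeR adjusted p = 0.200), with overlapping groups on both diets, which did not pass. Without Western diet nonpregnant replicate 3 it was 0.53 and passed (edgeR adjusted p = 0.0440). In Western diet postpartum against control diet nonpregnant hearts the 3 libraries of each did not overlap (42.3 to 61.03 against 61.6 to 86.3 CPM), with a log2 fold change of -0.55 (SE 0.20, edgeR adjusted p = 0.162). Groups that do not overlap with lower levels were found for 9.89% of genes in that comparison.

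Cell type markers gave these values beside the Nppa result. Of the 8 cardiomyocyte markers 0 passed the diet test in edgeR, with a median log2 fold change of -0.12 over the list and all 8 below 0. None of the 4 measured atrial markers passed, and the 3 atrial genes below the filter were near 0 as given above. The whole atrial list summed to 53.5 to 65.9 and 76.2 to 85.2 CPM in Western diet postpartum and nonpregnant hearts, against 68.8 to 79.6 and 65.3 to 94.1 CPM in control diet postpartum and nonpregnant hearts, most of it from Kcnj3, a potassium channel gene. Of the 11 endothelial markers edgeR called 3 (Pecam1, Tie1 and Cldn5) higher on the Western diet, as it did 153 of all 15476 genes. Endothelial markers summed to 1187 to 1321 and 1157 to 1243 CPM in Western diet postpartum and nonpregnant hearts, against 1146 to 1198 and 1083 to 1125 CPM in control diet postpartum and nonpregnant hearts. Their part in the result was not tested.

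The level of Nppa carries an uncertainty of annotation. Of its 865 exonic bases, 532 (61.5%) are shared with Gm13054, a gene annotated on the opposite strand, and 333 are its own. Counts per library were 752 to 3046 for Nppa and 2 to 19 for Gm13054. The sources used here do not say whether the counting used strand, so reads from the shared part cannot be assigned with certainty and the ratio of Nppb to Nppa depends on how they were handled. Per kilobase, the Nppb to Nppa ratio was 1.29 to 16.3 with the Nppa count divided by all its bases. With the same count divided by its unshared bases alone, the ratio was 0.499 to 6.27. Exons of the other members overlapped genes on the opposite strand less, by 11.7% for Npr1, 5.7% for Npr2, 2.72% for Corin and 1.29% for Furin, and Nppb and Npr3 had no such overlap.

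**Figure D2:**
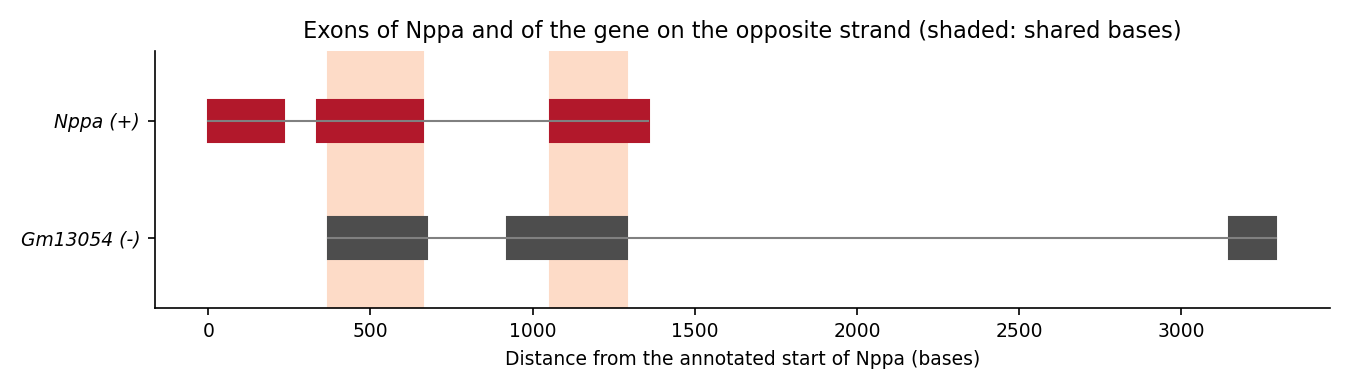
Exons of Nppa (top) and Gm13054 (bottom) as boxes along the distance in bases from the annotated start of Nppa, with introns as lines. Shading marks the 532 shared exonic bases, which lie in the last 2 exons of Nppa.

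The peptide genes were also set against each other within each library. The ratio of Nppb to Nppa, in CPM and given with no test, was 14.7, 2.13 and 7.84 in Western diet postpartum hearts and 1.97, 3.02 and 3.001 in control diet postpartum hearts, against 2.58, 2.38 and 2.35 in Western diet nonpregnant and 1.71, 1.30 and 1.17 in control diet nonpregnant hearts. Western diet postpartum replicates 1 and 3 had the highest ratios of all libraries, and replicate 2 lay within the range of the other groups. The 3 control diet nonpregnant libraries had the lowest. Over the 12 libraries the correlation of log2 CPM between Nppa and Nppb was 0.27 (Pearson) and 0.34 (Spearman), and 0.12 for deviations from the group means, as a description without a test.

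**Figure D3:**
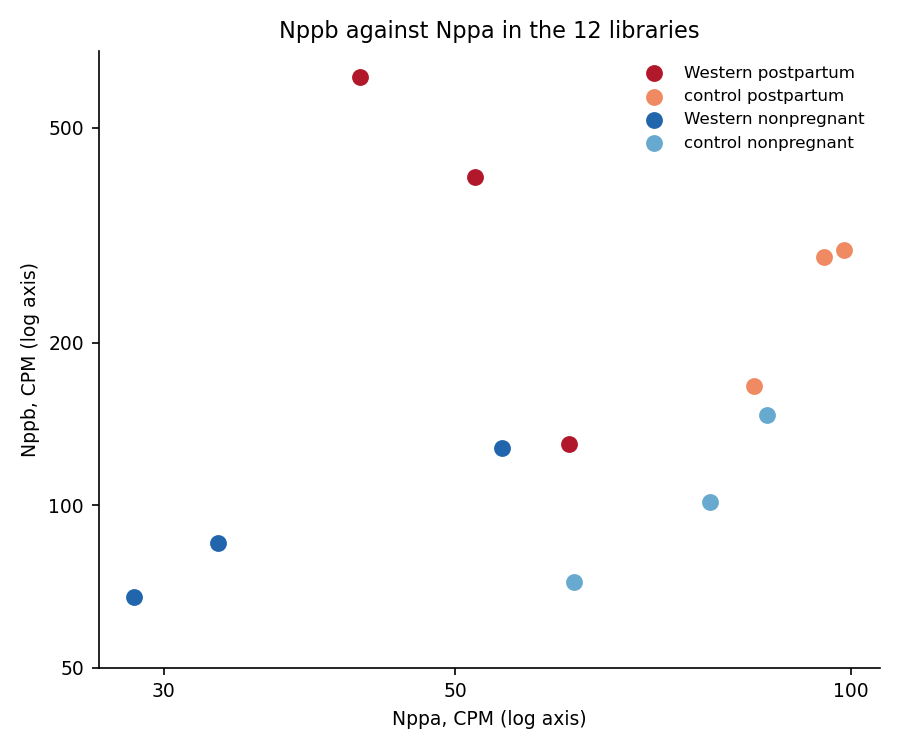
Nppb against Nppa in CPM, both on log axes, with a point for each of the 12 libraries coloured by group. Western diet postpartum replicates 1 and 3 stand apart at the upper left (622 and 406 CPM of Nppb with 42.3 and 51.8 CPM of Nppa), and the control diet libraries lie to the right.

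The receptor genes showed small differences, and none passed any of the 8 tests in edgeR. Npr1, the receptor of ANP and BNP, stayed between 24.1 and 30.1 CPM in all 12 libraries. It had 30.1, 26.0 and 28.3 CPM in Western diet postpartum and 24.1, 29.3 and 25.4 CPM in control diet postpartum hearts. In Western diet nonpregnant hearts it had 27.4, 30.1 and 27.2 CPM and in control diet nonpregnant hearts 27.8, 28.2 and 28.2 CPM. All groups overlapped. Its log2 fold change was -0.051 for pregnancy state (95% interval -0.17 to 0.072, edgeR adjusted p = 0.689) and 0.055 for diet (95% interval -0.068 to 0.18, adjusted p = 0.723), each averaged over the other factor.

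Npr2, the receptor of C-type natriuretic peptide, had 65.3, 62.6 and 68.3 CPM in Western diet postpartum and 61.5, 61.6 and 61.2 CPM in control diet postpartum hearts. It had 73.5, 62.6 and 71.1 CPM in Western diet nonpregnant hearts and 68.2, 68.0 and 67.4 CPM in control diet nonpregnant hearts. The control diet groups were tight and did not overlap, with lower levels in postpartum hearts, as 8.96% of all genes were. In postpartum hearts the Western diet group lay above the control diet group without overlap, as did 9.86% of all genes. Neither difference passed edgeR's test, with log2 fold changes of -0.14 for pregnancy state on the control diet (SE 0.062, adjusted p = 0.367) and 0.091 for diet in postpartum hearts (SE 0.063, adjusted p = 0.555).

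Npr3, the clearance receptor, was highest in Western diet postpartum hearts at 35.7, 22.3 and 26.1 CPM, mainly through replicate 1. It had 18.1, 27.0 and 21.0 CPM in control diet postpartum, 19.8, 20.5 and 23.8 CPM in Western diet nonpregnant and 21.3, 23.4 and 22.8 CPM in control diet nonpregnant hearts, and all groups overlapped. On the Western diet its log2 fold change between postpartum and nonpregnant hearts was 0.39 (SE 0.16, edgeR adjusted p = 0.278), and 0.18 without replicate 1 of the postpartum group. On the control diet it was -0.031 (SE 0.16, edgeR adjusted p = 0.960).

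The proteases did not pass a test either. Corin, which activates ANP, had 296, 241 and 310.4 CPM in Western diet postpartum hearts and 198, 264 and 213 CPM in control diet postpartum hearts, against 210.4, 256 and 219.8 CPM in Western diet nonpregnant and 221, 296 and 310.0 CPM in control diet nonpregnant hearts. Its estimates between postpartum and nonpregnant hearts had opposite signs on the 2 diets, 0.30 on the Western (SE 0.14, edgeR adjusted p = 0.325) and -0.29 on the control diet (SE 0.14, edgeR adjusted p = 0.404), with overlapping groups on both. The interaction was 0.60 (SE 0.19, unadjusted p = 0.00838 and adjusted p = 0.437 in edgeR's test), the largest departure of a member in that comparison by p and not a call. For the interaction edgeR called 0 of all genes tested (0.00%), 1390 genes had an unadjusted p under 0.05, limma-voom called 0 genes and DESeq2 called 43 genes (0.278%), none of them a member.

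Furin had 116, 99.7 and 115 CPM in Western diet postpartum hearts and 102, 88.2 and 96.4 CPM in control diet postpartum hearts, against 72.7, 104 and 94.1 CPM in Western diet nonpregnant and 82.1, 105 and 109.6 CPM in control diet nonpregnant hearts. All groups overlapped. The log2 fold change between postpartum and nonpregnant hearts was 0.29 on the Western diet (SE 0.13, edgeR adjusted p = 0.312) and -0.052 on the control diet (SE 0.13, edgeR adjusted p = 0.906).

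**Figure D4:**
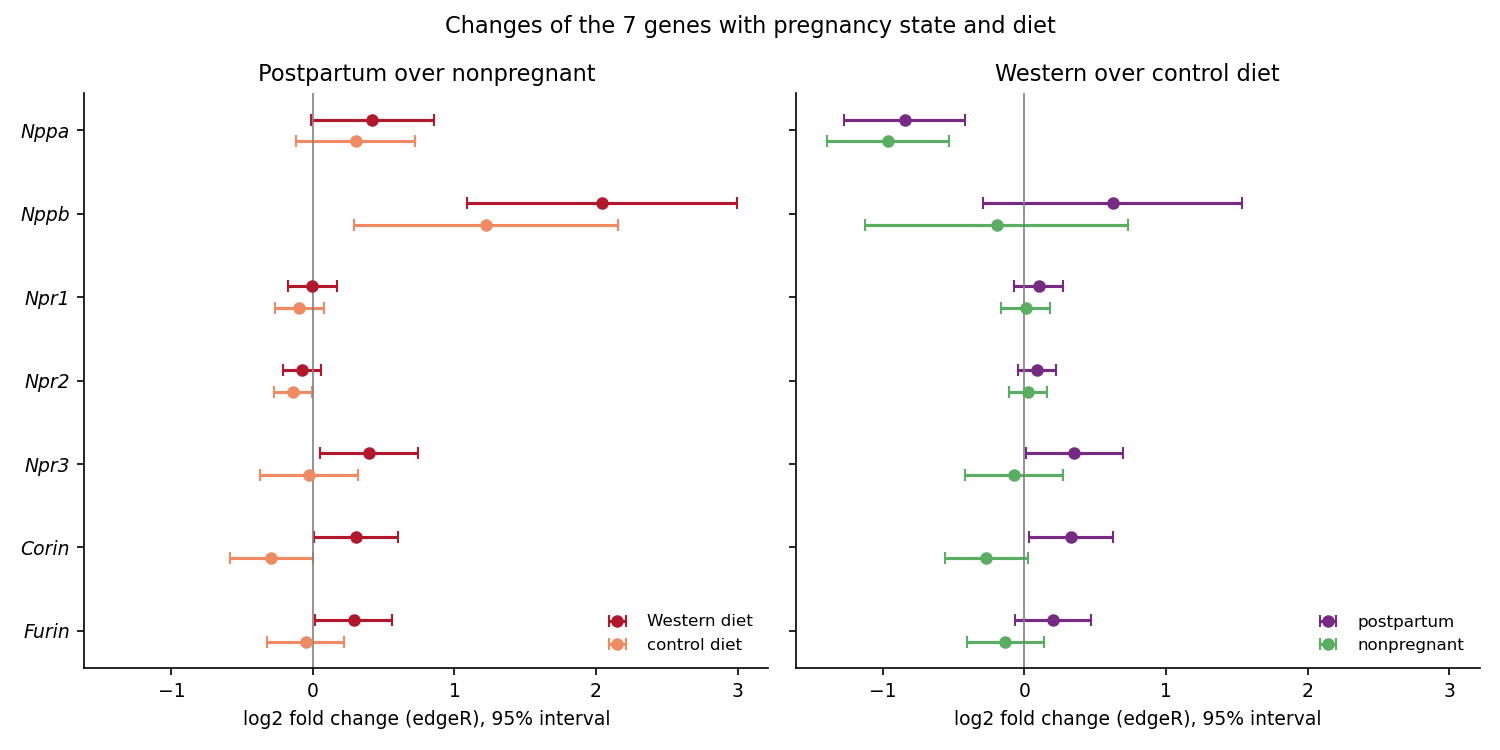
Log2 fold changes of the 7 genes (rows) with 95% intervals from edgeR, for postpartum over nonpregnant hearts on each diet (left) and Western over control diet in each state (right). Nppb lies to the right of 0 on both diets (2.04 and 1.22). Nppa lies to the left of 0 for diet in both states (-0.85 and -0.96). The 20 intervals of the receptors and proteases lie between -0.59 and 0.74, and 6 leave out 0 before adjustment. These are Npr3, Corin and Furin on the Western diet, Npr2 on the control diet, and Npr3 and Corin for diet in postpartum hearts. For pregnancy state, edgeR's test gave 14.7% of all genes an unadjusted p under 0.05 on the Western diet and 12.5% on the control diet. For diet the shares were 14.6% in postpartum and 9.58% in nonpregnant hearts. The comparisons share libraries, so the 6 intervals are not independent.

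Counted over the 7 members, edgeR called 0 in the comparison of postpartum with nonpregnant hearts on either diet and 0 between the diets in either state. At an unadjusted p under 0.05 there were 4 members in the Western diet comparison (14.7% of all genes), 2 in the control diet comparison (12.5%), 3 between the diets in postpartum hearts (14.6%) and 1 in nonpregnant hearts (9.58%). DESeq2 called 1 member in each of these apart from the control diet comparison, where it called 0, and limma-voom called 0 in all 4. Over all genes DESeq2 called 2.33% for pregnancy state on the Western diet, 1.19% on the control diet, 2.95% for diet in postpartum hearts and 0.614% in nonpregnant hearts, and limma-voom 0.491%, 0.233%, 0.872% and 0.0388% in the same order. For Western diet postpartum against control diet nonpregnant hearts 2 members had an unadjusted p under 0.05 (18.2% of all genes), edgeR called 1, DESeq2 called 1 (5.03% of all genes) and limma-voom called 0 (2.16%). For the interaction 1 member did (8.98%) and no tool called it. The averaged effects of pregnancy state and of diet had 3 members (17.6%) and 1 member (14.3%) under 0.05, and edgeR, DESeq2 and limma-voom each called 1 member for each. Over all genes DESeq2 called 3.97% for pregnancy state and 3.13% for diet, and limma-voom 1.84% and 1.42%.

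For each member the 3 genes with the most similar pattern of log2 CPM over the 12 libraries were taken from the 15476 genes tested. Genes without a symbol or with a predicted or clone name were left out, and some of those may have been closer. The values are the highest of many correlations and have no test. Nppb was most like Heg1 (Pearson r 0.94, Spearman rho 0.90), Slmap (0.93 and 0.92) and Rrp12 (0.92 and 0.94). By deviations from the group means it was most like Arhgap31 (Pearson r 0.95), Klhl34 (0.94) and Svil (0.94). Nppa was most like Dpysl3 (Pearson r 0.92, Spearman rho 0.88), Uggt1 (0.91 and 0.92) and Spata13 (0.91 and 0.89), and by deviations most like Rmi2 (0.91), Bmp4 (0.90) and Arpin (0.90). The lists of the 2 peptides shared no gene, which says little. Their own correlation was low (Pearson r 0.27, and 0.12 by deviations), so a gene close to both could hardly occur.

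Npr1 was most like Hyal1, Pkn3 and Zc3h10 (Pearson r 0.85 each), Npr2 most like mt-Co3 (0.92), Pnck (0.90) and Chpt1 (0.88), and Npr3 most like Myot (0.89), Adm (0.88) and Cp (0.88). Corin was most like Abhd18 (0.96), Pdzd2 (0.95) and Pde4dip (0.92), and Furin most like Etf1 (0.94), Slc39a14 (0.93) and Vmp1 (0.93). Slc39a14 also led the list of Furin by deviations from the group means (0.98). By deviations, the other members were most like Cep128, E2f4 and Tnip3 for Npr1 (0.91, 0.91 and 0.89), Lyplal1, Rnf121 and Chst7 for Npr2 (0.93, 0.92 and 0.91), Tbpl1, Hspb1 and Spire1 for Npr3 (0.93, 0.93 and 0.92), and Chchd3, Pxmp2 and Ptp4a3 for Corin (0.97, 0.97 and 0.96). Med1 and Arhgap5 followed for Furin (0.97 each). The 12 points of each correlation share library, depth and group.

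Beyond the 7 members, the rest of the pathway was read from lists. Of 6 other ligand, processing and clearance genes, 4 were measured, and none passed in any of the 8 comparisons by edgeR's test. Nppc, the gene of C-type natriuretic peptide, and Ostn, the gene of osteocrin, which binds Npr3, were below the filter with at most 0.126 and 0.265 CPM. Ide, the insulin-degrading enzyme that can also cleave natriuretic peptides, had 132, 132 and 101 CPM in Western diet postpartum and 73.7, 127 and 98.6 CPM in control diet postpartum hearts. In Western diet nonpregnant hearts Ide had 71.1, 102 and 64.0 CPM and in control diet nonpregnant hearts 78.3, 68.3 and 70.9 CPM. Its log2 fold change for pregnancy state was 0.54 (SE 0.13, edgeR adjusted p = 0.0582). Mme, the gene of neprilysin, which degrades the peptides, had log2 fold changes of 0.19 for pregnancy state (SE 0.080, edgeR adjusted p = 0.228) and 0.26 for the Western diet (SE 0.080, adjusted p = 0.140), and Dpp4, a peptidase, -0.33 for the Western diet (SE 0.18, adjusted p = 0.430).

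Of 12 genes that act on or respond to cyclic GMP, edgeR called 1, in the comparison of Western diet postpartum with control diet nonpregnant hearts, where 2.62% of all genes were called and 1.18% called lower. Rgs2, a regulator of G protein signalling that cyclic GMP-dependent kinase activates, fell to 32.1, 32.8 and 28.2 CPM in Western diet postpartum hearts, against 40.1, 39.6 and 47.9 CPM in control diet nonpregnant hearts (log2 fold change -0.45, SE 0.098, edgeR adjusted p = 0.0291). Those libraries did not overlap, as was so for 9.89% of all genes with lower levels. Its averaged values were -0.24 for pregnancy state (adjusted p = 0.0975) and -0.22 for diet (adjusted p = 0.149), which did not pass edgeR's test. Vasp, a substrate of that kinase, had 0.24 for pregnancy state (edgeR adjusted p = 0.0712), and Pde2a, a phosphodiesterase that breaks down cyclic nucleotides, had -0.20 for diet (edgeR adjusted p = 0.329). The median log2 fold change over the 12 genes was -0.048 for pregnancy state and -0.037 for diet, beside -0.0011 and -0.00042 over all genes.

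Of 13 transcription factors that act on the peptide genes, edgeR called 1, again in the comparison of Western diet postpartum with control diet nonpregnant hearts (2.62% of all genes called, 1.18% lower). Mef2a, a factor of muscle genes, fell to 141, 149 and 141 CPM in Western diet postpartum hearts, against 198, 173 and 169 CPM in control diet nonpregnant hearts (log2 fold change -0.32, SE 0.075, edgeR adjusted p = 0.0377), with no overlap, which 9.89% of all genes showed in that direction. Averaged over diets it had -0.18 for pregnancy state (edgeR adjusted p = 0.0944), and averaged over states -0.14 for diet (adjusted p = 0.227). Srf, a factor that responds to actin dynamics, had 0.25 for pregnancy state (SE 0.088, edgeR adjusted p = 0.161). Gata4, a factor that binds GATA motifs of both peptide promoters in rat and mouse studies, had -0.12 for diet (SE 0.042, edgeR adjusted p = 0.180). None of the 13 passed in the 2 averaged comparisons. Their medians there were -0.042 for pregnancy state and -0.12 for diet, beside the medians over all genes given above.

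Stretch and hypertrophy genes, which often change together with the peptides in loaded hearts, held the most calls of the 4 lists. The lists were chosen with earlier results of these data known, so that ranking is a description only. Of 11 such genes, 3 rose and 1 fell in postpartum hearts averaged over diets by edgeR's test, and 0 passed for diet. The 3 that rose encode matrix proteins, while Acta1, Ankrd1, Ccn2, Fhl1, Csrp3, Nmrk2 and Xirp2 were not called in any comparison. Of all genes tested, 1.03% rose and 0.750% fell in postpartum hearts. The median over the list was 0.37 on the log2 scale for pregnancy state and -0.0040 for diet. Thbs1, the matrix protein thrombospondin 1, had 17.3, 15.7 and 11.2 CPM in Western diet postpartum and 23.4, 10.4 and 9.97 CPM in control diet postpartum hearts. It had 4.21, 3.26 and 4.58 CPM in Western diet nonpregnant and 5.61, 4.92 and 4.76 CPM in control diet nonpregnant hearts, below every postpartum library (log2 fold change averaged over diets 1.70, SE 0.21, edgeR adjusted p = 0.00518).

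Tnc, the matrix protein tenascin C, likewise did not overlap, with 2.49, 4.55 and 3.77 CPM in Western diet postpartum and 2.59, 2.91 and 4.68 CPM in control diet postpartum hearts. In Western diet nonpregnant hearts Tnc had 1.12, 1.21 and 1.06 CPM and in control diet nonpregnant hearts 0.964, 1.39 and 1.27 CPM (1.58, SE 0.20, edgeR adjusted p = 0.00518). Postn, the matrix protein periostin, rose by 0.59 (SE 0.12, edgeR adjusted p = 0.0306). Myh7, the slow myosin heavy chain that often rises with the peptides under pathological load, fell instead, by 0.24 (SE 0.043, edgeR adjusted p = 0.0187). It had 386, 424 and 404 CPM in Western diet postpartum and 372, 383 and 400.4 CPM in control diet postpartum hearts, against 462, 423 and 457 CPM in Western diet nonpregnant and 506, 464 and 485 CPM in control diet nonpregnant hearts, overlapping on the Western diet only.

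Taken by diet, edgeR called Thbs1 (1.88, adjusted p = 0.0271) and Tnc (1.67, adjusted p = 0.0271) higher in postpartum hearts on the Western diet, and Tnc higher (1.501, adjusted p = 0.0436) and Myh7 lower (-0.33, adjusted p = 0.0436) on the control diet. Among all genes 0.355% were called higher on the Western diet, and 0.207% higher and 0.0323% lower on the control diet. Thbs1, Tnc and Myh7 were called in Western diet postpartum against control diet nonpregnant hearts, with Thbs1 at 1.53, Tnc at 1.58 and Myh7 at -0.26 (edgeR adjusted p = 0.0182, 0.0120 and 0.0401), a comparison in which 1.45% of genes were higher and 1.18% lower. Acta1, the skeletal actin gene that also marks hypertrophy, had 297, 119 and 261 CPM in Western diet postpartum and 109, 106 and 92.1 CPM in control diet postpartum hearts. It had 74.5, 93.4 and 239 CPM in Western diet nonpregnant and 92.4, 142 and 73.5 CPM in control diet nonpregnant hearts. Western diet postpartum replicates 1 and 3, the libraries with the most Nppb, also had the most Acta1, and the diet difference of 0.77 averaged over states did not pass edgeR's test (SE 0.28, adjusted p = 0.215). Over the 12 libraries the Pearson r with Nppb, given with no test, was 0.64 for Acta1. In the same list it was negative for Myh7 (-0.65) and Nmrk2 (-0.20), and otherwise ran from 0.34 for Fhl1 to 0.80 for Ankrd1. These values include the differences between groups. By deviations from the group means the r with Nppb was -0.15 for Thbs1, -0.46 for Tnc, -0.63 for Nmrk2 and -0.091 for Myh7. For the rest of the list it ran from 0.17 for Postn to 0.69 for Ccn2, with 0.68 for Acta1. Nmrk2, a nicotinamide riboside kinase of muscle, had -0.27 for diet (SE 0.17, edgeR adjusted p = 0.515).

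**Figure D5:**
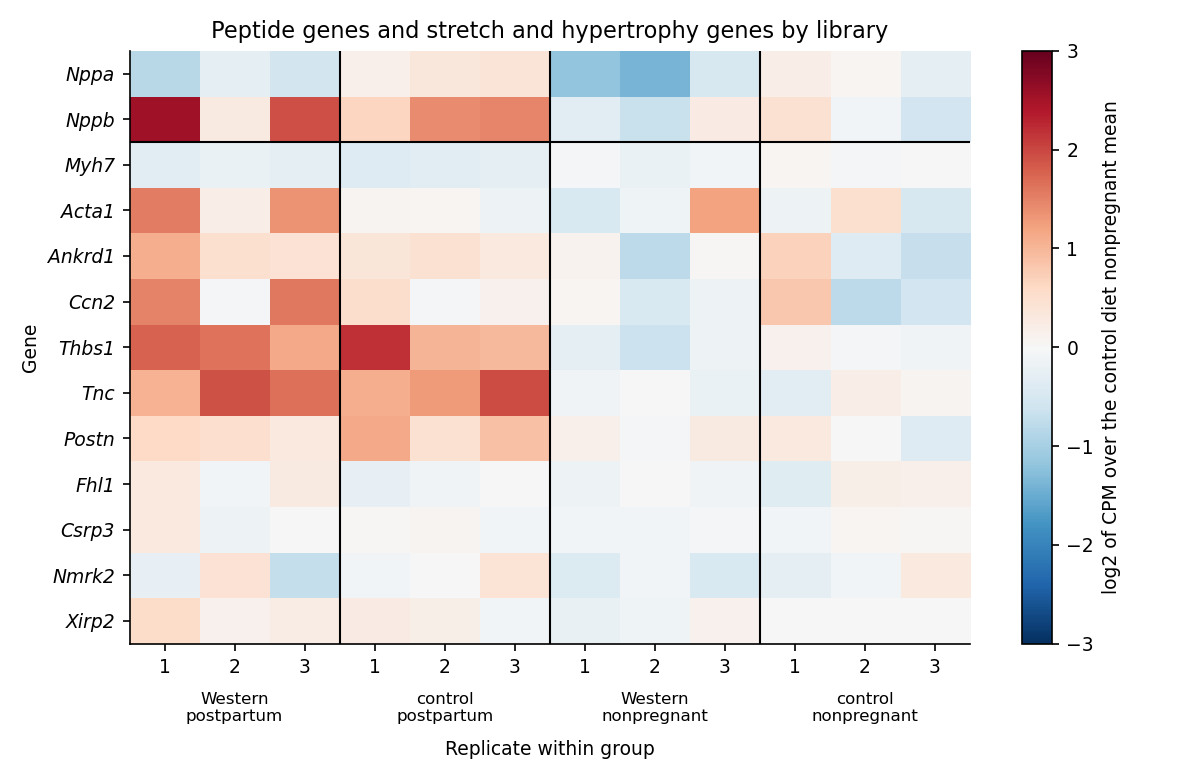
Nppa, Nppb and the 11 stretch and hypertrophy genes (rows) in each library (columns, by group and replicate), as log2 of CPM over the mean of the control diet nonpregnant libraries, from blue (lower) to red (higher). Thbs1 and Tnc are red in all postpartum libraries of both diets, while Nppb is strongest in Western diet postpartum replicates 1 and 3 (622 and 406 CPM) and Nppa is blue in the Western diet libraries.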

How the data were processed

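RNA-seq was done on 12 mouse heart libraries, 3 per group, grouped by the diet and time point labels. Per the labels' protocols, the Qiagen RNeasy kit was used for RNA and the NEBNext Ultra RNA kit for libraries. The submitters' processing notes name the GRCm38 (mm10) genome, STAR 2.5.2b, Subread 1.5.2 with featureCounts, and FastQC. The files deposited by the authors hold raw counts per gene, without normalization. Not given in the sources used here were the strand setting, read length and annotation release.

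Symbols were matched to Ensembl IDs through a reference name table (48970 of 49315 IDs), and exons are those of the count files. The filterByExpr rule of edgeR 4.0.16 (R 4.3.3), with a minimum count of 10 and a minimum total of 15, left 15476 genes. A single quasi-likelihood model of the 4 group means with TMM scaling took in all 12 libraries (common BCV 9.62%). Its 8 contrasts were tested two-sided at 0.05, each adjusted over all genes by Benjamini-Hochberg. An SE is the log2 fold change divided by the root of the F statistic. Intervals are 95%. CPM use TMM-scaled library sizes, and correlations use log2 CPM with a prior count of 2. Reads carry no molecular identifiers, so limits from counts cover counting error only. Library totals of 22754591 to 29492416 put 752 or more counts behind each value of Nppa.

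Replicate libraries were compared by chi-square, and none agreed within sampling noise. The procedure was tested on simulated data with known changes. Alternatives were DESeq2 1.42.0 size factors in edgeR, no filter, a filter of 1 CPM in 3 libraries, the robust option, library sizes without mitochondrial genes, only the groups compared, DESeq2, limma-voom (limma 3.58.1), each library left out and a pair of control diet libraries left out together. A newer form of edgeR's quasi-likelihood method was added after seeing the data. Promoters are from RefSeq.

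The 7 genes, the lists, the tests and the markers were chosen with earlier results of these data known. The named genes are the 7 members, each listed pathway gene past the threshold in any comparison, the 2 with the smallest p per list in the averaged pregnancy and diet contrasts, and the 3 genes most like each member. For the last, genes without a symbol or with a predicted or clone name were not eligible.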

Additional observations from a re-analysis of the deposited data

How the results depend on the processing

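The log2 fold changes of the 7 genes in the 8 comparisons, 56 values, were recomputed under 1050 alternatives in all. Of these 965 kept their direction and side of the threshold, 13 kept the direction and lost the call, 31 gained a call and 41 changed sign. The lower Nppa on the Western diet, averaged over states, was called under all 22 of its alternatives. The alternatives that lost the call of Nppb are given with it in the report, and the cause was not tested. No paired analysis was possible because the labels give the groups no shared replicate numbers.

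Without a filter on low counts the members called were 5 for pregnancy state on the Western diet and 3 on the control diet, 4 for diet in postpartum and 2 in nonpregnant hearts, 3 for Western diet postpartum against control diet nonpregnant hearts, 2 for the interaction and 2 for each averaged effect. Of all 29761 genes that fit called 933, 744, 1048, 454, 1315 and 506 in the same order, then 1262 for averaged pregnancy state and 1029 for averaged diet. That fit had infinite prior degrees of freedom (5.74 in the analysis reported), so a gene's own spread was not used. The newer form of edgeR's method without a filter, chosen after seeing the data, had 12.9. Like DESeq2, it called 1 member each for pregnancy state on the Western diet, diet in postpartum hearts and diet in nonpregnant hearts. Of all 29761 genes it called 163, 258 and 18 in these comparisons. The robust option called 0 for averaged pregnancy state, and the robust option, limma-voom and a fit of the groups compared alone each called 0 for Western diet postpartum against control diet nonpregnant hearts. A fit of the groups compared alone called 1 for diet in postpartum hearts, where it called 71 of 14950 genes.

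With each library left out in turn, 0 to 1 members were called for pregnancy state on the Western diet, for diet in each state and for Western diet postpartum against control diet nonpregnant hearts, and 0 to 2 for averaged pregnancy state. Members called stayed at 1 for averaged diet, 0 for pregnancy state on the control diet and 0 for the interaction.

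The sign changes were in 15 log2 fold changes of at most 0.22 in size whose reported adjusted p was 0.797 or more. With each library left out in turn, pregnancy state ranged from -0.057 to 0.045 for Npr1 on the Western diet, and on the control diet from -0.19 to 0.096 for Npr3 and from -0.16 to 0.028 for Furin. Diet in nonpregnant hearts ranged from -0.49 to 0.12 for Nppb, -0.035 to 0.039 for Npr1, -0.018 to 0.096 for Npr2 and -0.25 to 0.0016 for Furin. Western diet postpartum against control diet nonpregnant hearts ranged from -0.048 to 0.058 for Npr1 and -0.096 to 0.14 for Corin. The interaction ranged from -0.068 to 0.45 for Nppa and -0.0086 to 0.105 for Npr2. Averaged pregnancy state ranged from -0.060 to 0.057 for Corin, and averaged diet from -0.049 to 0.42 for Nppb, -0.036 to 0.094 for Corin and -0.024 to 0.101 for Furin. For Western diet postpartum against control diet nonpregnant hearts Npr1 was also -0.0026 without a filter, -0.0024 with the newer method without a filter and -0.0038 without control diet postpartum replicate 3 and nonpregnant replicate 1 together. Without that pair Nppb for diet in nonpregnant hearts was 0.115, Corin was -0.10 for Western diet postpartum against control diet nonpregnant hearts, -0.045 for averaged pregnancy state and -0.055 for averaged diet, and Furin was -0.021 for averaged diet.

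Counts over all genes moved more than 1.5-fold. With each library left out in turn they ran from 0 to 472 (91 reported) and 0 to 205 (37 reported) for pregnancy state on the Western and control diets, 30 to 490 (136 reported) and 0 to 4 (9 reported) for diet in postpartum and nonpregnant hearts, 87 to 764 (406 reported) for Western diet postpartum against control diet nonpregnant hearts, 0 to 53 (0 reported) for the interaction, and 52 to 567 (276 reported) and 83 to 378 (214 reported) for averaged pregnancy state and diet. Without a filter they were 933, 744, 1048, 454, 1315, 506, 1262 and 1029 in the same order.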
